A study of Mus musculus with 3 samples.

Results

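The 10 genes described here, Flt3, Csf1r, Notch1, Ly6a, Cd28, Ccr2, Grap2, Sdc1, Lmo2 and Emb, are progenitor, myeloid and T-lineage genes that have been reported as repressed by Pax5. They were chosen by name, and each matched 1 of the 26286 Entrez gene identifiers in the deposited count table. The RNA-seq data comprise 3 libraries, which form a single group, made from pre-B cells of mouse bone marrow. The donors were CAG-rtTA3;TRE-GFP-shLuc.1309 bitransgenic mice: CAG is a broadly active promoter, rtTA3 a transactivator that works only with doxycycline, and the TRE cassette links GFP to a short hairpin RNA against luciferase, a control with no mouse target. Doxycycline was given for 3 days, and cells that were GFP+, B220+, CD25+, IgM- and Kit- were sorted. Every library shares this genotype and treatment, and no library with altered Pax5 was analysed here, so the values below are levels in Pax5-expressing cells and not a response to Pax5. The labels state neither the age of the mice nor whether the libraries stem from different animals, so p-values measure only the spread among these 3 libraries, part of which may be technical.

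Pax5 is the transcription factor that commits a lymphoid progenitor to the B lineage. It activates genes of the B-cell receptor and its signalling, and it holds down genes that belong to progenitors and to other lineages, such as growth factor receptors of myeloid cells and signalling proteins of T cells. Groucho proteins, encoded by the Tle genes, are corepressors that Pax5 can recruit. Several of the repressed genes are known to be switched on again when B cells become plasma cells, which lose Pax5.

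The libraries held between 12021576 and 32086649 counts, with replicate 3 the deepest. Levels are given as RPKM, the count scaled to the length of the gene and the size of the library, with the mean ± SD (n = 3) unless each library is named. All 9 gate and lineage markers of B cells reached 1 RPKM in every library, with Il2ra, the CD25 gene of the gate, at 89.3 ± 17.7 RPKM. This is no test of identity, since the sort used some of these markers. In addition, 11146 of the 17423 genes with a count reached that level. All 10 neutrophil markers also reached 1 RPKM in every library, led by S100a9 at 774 ± 250 RPKM, although a sort for B220+ CD25+ cells would remove neutrophils, and the source of this RNA was not tested. In bulk RNA, few cells with a high level and many cells with a low level cannot be told apart.

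Pax5 itself stood at 235, 287 and 249 RPKM in replicates 1, 2 and 3, and its partners were also high. Tcf3 and Ikzf1, factors of early lymphoid cells, had 423 ± 20.8 and 265 ± 10.8 RPKM, and Ebf1, which acts beside Pax5, had 189 ± 16.4 RPKM. Of the Groucho genes, Tle3 (33.9 ± 4.88 RPKM) and Tle4 (28.6 ± 1.79 RPKM) were well above Tle1 (1.96 ± 0.49 RPKM) and Tle2 (1.10 ± 0.057 RPKM). Of 14 genes known to be activated by Pax5, 12 reached 1 RPKM in every library, led by Spib (868 ± 28.4 RPKM) and Cd79a (721 ± 33.9 RPKM). The exceptions were Cr2 (0.244 ± 0.106 RPKM) and Fcer2a (0.185 ± 0.032 RPKM), the CD21 and CD23 genes of mature B cells. Beside these lists, the 10 repressed genes had a median of 1.48 ± 0.31 on the log2(RPKM + 0.5) scale, against 7.54 ± 0.19 for the activated genes and 2.57 ± 0.016 for all 17423 genes with a count.

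**Figure D1:**
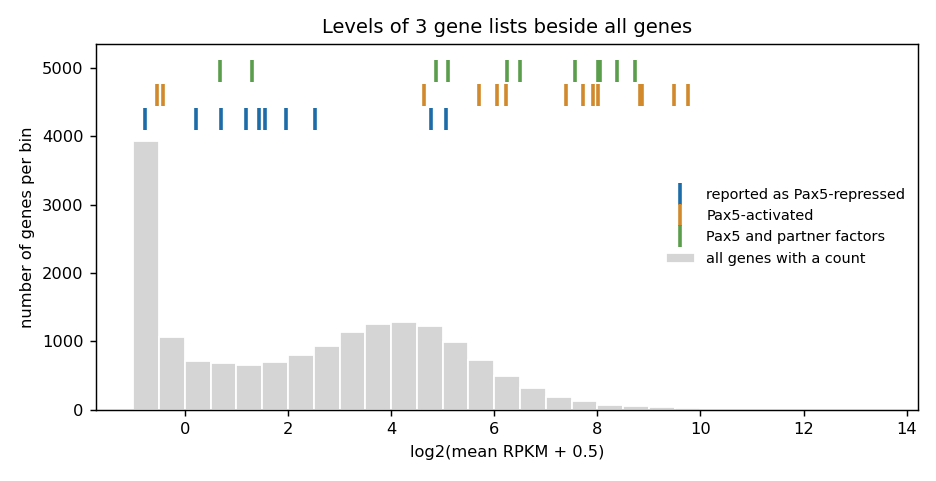
Levels, as log2(mean RPKM + 0.5), of the 10 genes reported as Pax5-repressed, 14 Pax5-activated genes and 11 factors of the Pax5 group (vertical ticks), above a histogram of all 17423 genes with a count (number of genes per bin). The repressed genes form a low cluster with 2 members apart on the right, and the activated genes lie mostly to the right of them, apart from 2 at the low end.

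The repressed genes were not uniformly low. Their means covered a 399-fold range. All 10 had counts, and 7 reached 1 RPKM in every library. Of all genes, 11146 reached it, which is 42.4% of those in the table and 11146 of the 17423 with a count. Sdc1 and Notch1 lay above the median gene with a count and the other 8 below it. These 2 genes together made up 78.0% of the summed RPKM of the 10. The order from the highest to the lowest, Sdc1, Notch1, Grap2, Lmo2, Ccr2, Emb, Csf1r, Ly6a, Flt3 and Cd28, was the same within each of the 3 libraries. Neighbours in that order were not always apart across libraries, since the ranges of Lmo2 and Ccr2, of Ccr2 and Emb, of Emb and Csf1r, and of Ly6a and Flt3 overlapped.

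**Figure D2:**
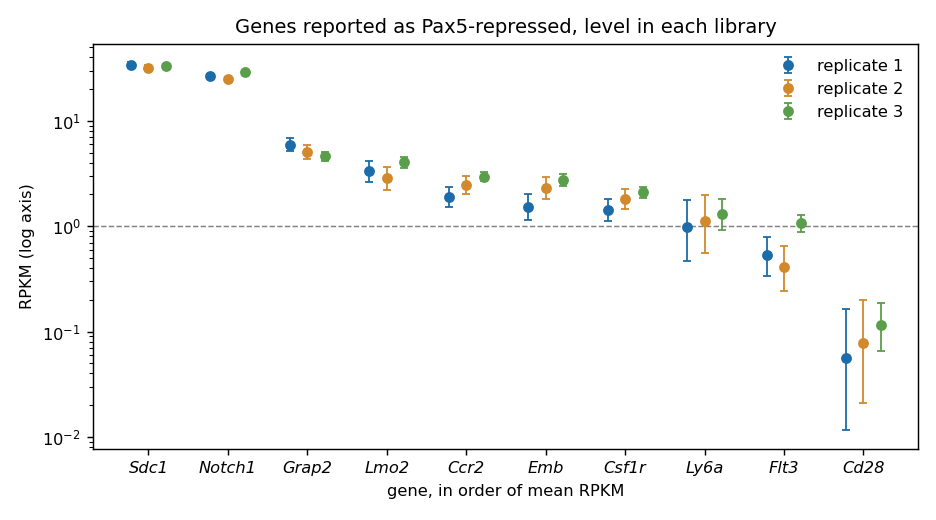
RPKM of the 10 genes in each library on a log axis, in order of mean level, with exact Poisson 95% intervals that cover counting error only; the dashed line marks 1 RPKM. Sdc1 and Notch1 sit between 25.1 and 33.9 RPKM, a middle group runs from Grap2 down to Csf1r, and the 3 points of Cd28 lie at or below 0.115 RPKM.

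Sdc1 (Entrez 20969) encodes syndecan-1, also called CD138, a heparan sulfate proteoglycan of the cell surface best known as a plasma cell marker. It had 1289, 1171 and 3263 counts, or 33.9, 32.0 and 33.2 RPKM, in replicates 1, 2 and 3. It was the steadiest of the 10, with an SD of 3.02% of its mean, and it exceeded 83.4% of the genes with a count. Among the syndecans only Sdc4, at 70.1 ± 8.47 RPKM, was higher, and Sdc3 (0.271 ± 0.091 RPKM) and Sdc2, with 1 count in all, were far lower. Sdc1 was lower than Sdc4 in every library, by -1.07 ± 0.17 on the log2(RPKM + 0.5) scale.

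Other plasma cell genes did not form 1 level beside Sdc1. Prdm1, the repressor that drives plasma cell formation, had 1.16 ± 0.35 RPKM, Jchain, which links secreted IgM, had 0.969 ± 0.581 RPKM, and Tnfrsf17, the BCMA receptor of plasma cells, had 4 counts over the 3 libraries (1, 1 and 2). Xbp1, a secretory factor also reported as repressed by Pax5, stood at 40.5 ± 4.63 RPKM, and Mzb1, an endoplasmic reticulum protein of B-lineage cells, at 197 ± 11.0 RPKM. Irf4 (240 ± 15.6 RPKM), a factor of pre-B and plasma cells, was the highest of the 7 and stands in the Pax5-activated list as well. Slamf7, the remaining gene of the list, also lay above Xbp1, which was the median gene of the list. The list summed to 596, 577 and 544 RPKM in replicates 1, 2 and 3. This sum is led by Irf4 and Mzb1, which are not particular to plasma cells. Sdc1 had its lowest value in replicate 2. The part of plasma cells in the Sdc1 level was not tested.

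Notch1 (Entrez 18128) encodes a receptor that directs progenitors to the T lineage when a neighbouring cell presents a ligand. It had 3144, 2856 and 8858 counts, or 26.7, 25.1 and 29.0 RPKM, and exceeded 79.7% of the genes with a count. Replicate 3 was the highest, and the 3 values spread by 7.28% of their mean. Of the 4 receptors, Notch2, which mature marginal zone B cells need, was the only other one above 1 RPKM, at 13.4, 16.4 and 14.4 RPKM. Notch1 was higher than Notch2 in each library, by 0.85 ± 0.21 (log2), which is 1.83-fold in mean RPKM. Notch3 and Notch4 had 22 and 40 counts in all.

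Notch is cut by a surface protease and then by gamma-secretase, and the freed part binds Rbpj and a Mastermind protein in the nucleus. The cleavage genes were present: Adam10, the surface protease, stood at 153 ± 19.2 RPKM, and gamma-secretase genes ran from Ncstn (47.6 ± 5.57 RPKM) and Psen2 (28.6 ± 3.88 RPKM) to Psenen (11.0 ± 0.49 RPKM) and Aph1a (5.95 ± 0.11 RPKM). Rbpj had 6.09, 11.8 and 8.10 RPKM, the Mastermind gene Maml1 20.8 ± 0.72 RPKM. The ligands were low, with Jag2 at 0.871 ± 0.209 RPKM, Dll1 at 0.363 ± 0.148, Dll4 at 0.179 ± 0.068 and Jag1 at 8 counts in all. Of the known target genes, Dtx1 (11.6 ± 0.20 RPKM), Hes1 (11.3 ± 1.51 RPKM) and Nrarp (3.47 ± 1.28 RPKM) exceeded 1 RPKM in every library, and Hes5 (0.811 ± 0.130 RPKM) and Hey1 (0.238 ± 0.026 RPKM) did not. These targets also have other inputs. Ptcra, a target in developing T cells, had no count in any library, which allows up to 0.195 RPKM in replicate 2, the shallowest library (3 counts).

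**Figure D3:**
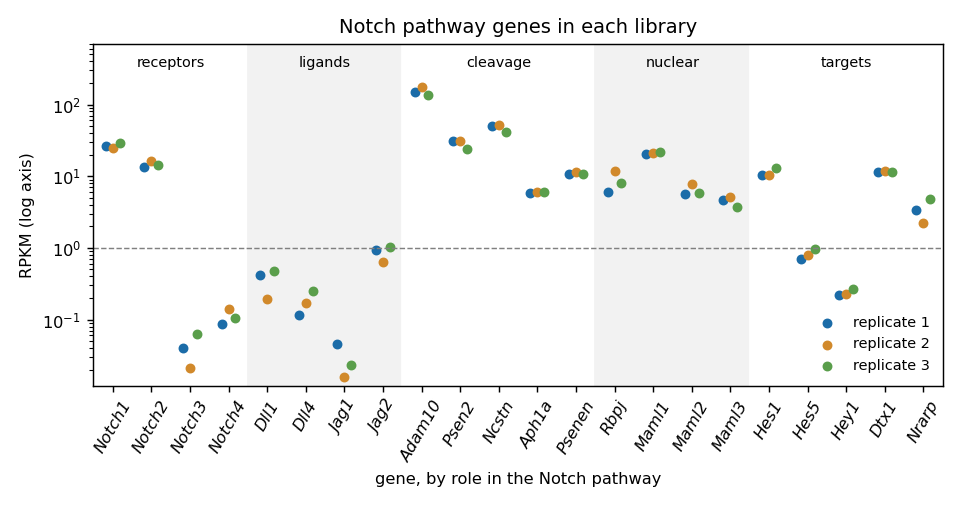
RPKM of Notch pathway genes in each library (log axis), grouped by role, with a dashed line at 1 RPKM. Notch1 and Notch2, the 5 cleavage genes drawn and all 4 nuclear partners lie above the line in every library; Dll1, Dll4 and Jag1 lie below it and Jag2 on either side of it. Ptcra, with no count, cannot be drawn on this axis.

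The promoters of the 2 high genes are shown beside that of Ccr2, one of the low ones, because they differ most in base composition. Each is the 250 bases before the start in the RefSeq table of GRCm38.p6, a build other than the mm9 of the counts, printed 5′ to 3′ on the gene's strand; capitals mark the GC box GGGCGG or its reverse complement CCGCCC. The Sdc1 promoter is chr12:8771146-8771395 on the plus strand, that of Notch1 chr2:26503823-26504072 on the minus strand and that of Ccr2 chr9:124101933-124102182 on the plus strand.
Sdc1: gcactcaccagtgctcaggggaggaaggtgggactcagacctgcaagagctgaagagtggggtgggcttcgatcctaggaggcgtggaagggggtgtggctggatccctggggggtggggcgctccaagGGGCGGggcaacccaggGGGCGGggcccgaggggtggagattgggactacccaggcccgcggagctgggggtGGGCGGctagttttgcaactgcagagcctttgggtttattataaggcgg
Notch1: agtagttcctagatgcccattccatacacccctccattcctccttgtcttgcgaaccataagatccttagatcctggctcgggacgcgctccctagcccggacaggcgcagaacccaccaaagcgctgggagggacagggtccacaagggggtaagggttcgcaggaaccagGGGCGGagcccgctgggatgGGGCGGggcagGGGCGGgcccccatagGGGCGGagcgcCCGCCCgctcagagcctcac
Ccr2: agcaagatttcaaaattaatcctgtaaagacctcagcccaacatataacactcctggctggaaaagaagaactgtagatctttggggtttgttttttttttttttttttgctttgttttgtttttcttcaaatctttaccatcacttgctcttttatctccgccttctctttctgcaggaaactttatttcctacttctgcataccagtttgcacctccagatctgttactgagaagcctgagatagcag

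The table held a promoter for 6 of the 10 genes. G and C made up 66.0% of the Sdc1 and of the Notch1 window and 37.2% of the Ccr2 window. The median over all 32851 promoters was 52.4%. Other low genes were not poor in G and C: Flt3 had 59.2%, Emb 54.8% and Grap2 54.4%. Of the 6 windows, only that of Ccr2 lay below the median, so base composition did not follow the level. Notch1 had 5 matches to the GC box and Sdc1 had 3, Emb and Grap2 had 1 each, and Flt3 and Ccr2 had none, and 32.7% of all promoters held at least 1. The letters GCGTGAC, or GTCACGC on the other strand, from the Pax5 recognition sequence, were in none of the 6 windows and in 1.78% of all. The ETS core GAGGAA or its reverse complement TTCCTC was in the windows of Notch1 and Sdc1, once each, and in 23.3% of all. No ETS match overlapped a GC box, and these matches only describe the windows, which were chosen after the levels were seen.

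Grap2 (Entrez 17444) encodes Gads, an adaptor that joins SLP-76, the product of Lcp2, to LAT below the T-cell receptor. It had 216, 178 and 434 counts, or 5.96, 5.09 and 4.62 RPKM, and was the only one of the 10 that was lowest in replicate 3. Its relatives were far higher: Grb2, the adaptor of receptor kinases in most cells, stood at 69.2 ± 5.70 RPKM and Grap at 45.4 ± 1.83 RPKM. Grap2 was lower than Grb2 by -3.61 ± 0.26 (log2), a ratio of 0.0754 in mean RPKM. Its T-cell partners were low as well, with Lcp2 at 2.55 ± 0.49 RPKM and Lat at 1.68 ± 0.33 RPKM. Blnk, the B-cell counterpart of Lcp2, stood at 259 ± 29.5 RPKM, and Lat2, the relative of Lat, at 5.87 ± 0.65 RPKM. Map4k1, a kinase that binds these adaptors, had 95.5 ± 3.51 RPKM.

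Cd28 (Entrez 12487), the costimulatory receptor of T cells, was the lowest of the 10, with 3, 4 and 16 counts. These are 0.0559, 0.0773 and 0.115 RPKM, and only 16.4% of the genes with a count were lower. Its ligand gene Cd86 was higher in each library, at 1.61 ± 0.24 RPKM, and the ratio of Cd28 to Cd86 in replicate 1 was 0.0310 (exact 95% interval 0.0062 to 0.0951). Of the same receptor family, Ctla4 and Icos had 3 and 6 counts in all, and Btla, an inhibitory receptor that B cells carry, stood at 9.14 ± 3.60 RPKM. The CD3 genes of the T-cell receptor were also below 1 RPKM but above Cd28 by mean: Cd3e stood at 0.220 ± 0.047 RPKM, Cd3g at 0.236 ± 0.137 RPKM and Cd3d at 0.479 ± 0.132 RPKM, each on 32 counts or fewer in all. The T and NK marker list summed to 18.8, 23.1 and 21.1 RPKM, of which Cd247, a signalling chain, gave 11.2 ± 0.81 RPKM.

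Among the genes of progenitors, Lmo2 (Entrez 16909) encodes a LIM-only bridge protein that joins bHLH and GATA factors in stem and erythroid cells. It had 78, 65 and 247 counts, or 3.30, 2.85 and 4.04 RPKM. Its relative Lmo4 stood at 160 ± 10.9 RPKM, and Lmo2 was lower by -5.37 ± 0.22 (log2), a ratio of 0.0212. The other parts of the complex did not share 1 level. The scaffold Ldb1 (54.0 ± 2.21 RPKM), the bHLH genes Tcf3 and Lyl1 (43.0 ± 2.98 RPKM) and Ssbp3 (22.4 ± 2.50 RPKM) were high, while Tal1 had 21 counts in all and Gata1 had 2.

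Flt3 (Entrez 14255) encodes the receptor of early lymphoid and dendritic cell progenitors. It had 24, 18 and 125 counts, or 0.528, 0.411 and 1.06 RPKM. Replicate 3 stood apart: its Poisson interval, 0.884 to 1.27 RPKM, lay above those of replicates 1 and 2. The gene for its ligand, Flt3l, was much higher, at 14.3 ± 1.14 RPKM. Kit, the progenitor receptor of the same kinase family, was selected against in the sort and stood at 1.07, 0.870 and 0.432 RPKM. Flt3 was below Kit in replicates 1 and 2 and above it in replicate 3, so their order did not hold across libraries, and the mean difference, -0.15 ± 0.78 (log2), was smaller than its spread.

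Ly6a (Entrez 110454) encodes Sca-1, the surface marker of mouse stem cells that activated lymphocytes also carry. It had 10, 11 and 35 counts, or 0.972, 1.11 and 1.31 RPKM, and the Poisson intervals of the 3 libraries overlapped. Other Ly6 genes covered a wide range. Ly6d, a marker of B-committed lymphoid progenitors, stood at 537 ± 57.3 RPKM and Ly6e at 475 ± 49.8 RPKM, and Ly6a was lower than Ly6e by -8.19 ± 0.28 (log2). Of the words of 31 bases in annotated Ly6a transcripts, 31.9% also occurred in another gene. Ly6c1 led, and Ly6c2, a gene of the monocyte markers summed below, also shared words. The count of Ly6a therefore depends on how shared reads were treated, a setting that the sources used here do not give. Stem and progenitor markers were low beside these genes: Meis1, a homeobox gene of stem cells, led at 1.60 ± 0.12 RPKM, Cd34 had 15 counts in all, and Mecom had none.

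The myeloid receptor genes were low but clearly counted. Csf1r (Entrez 12978), the receptor of macrophage growth factor, had 69, 84 and 261 counts, or 1.43, 1.81 and 2.09 RPKM. It exceeded Flt3 in each library, by 0.99 ± 0.31 (log2). One of its ligand genes, Csf1, stood at 4.05 ± 0.59 RPKM, and the other, Il34, had no count, which allows up to 0.136 RPKM in replicate 2. Annotated exons of Csf1r and of Hmgxb3, on the opposite strand, share 873 bases, and the sources used here do not give the strand setting of the counts.

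Ccr2 (Entrez 12772), the chemokine receptor that calls monocytes out of the marrow, had 85, 106 and 342 counts, or 1.91, 2.46 and 2.96 RPKM. Ccr7, which guides lymphocytes to lymph nodes, stood at 41.9 ± 5.02 RPKM and was the only receptor of its list above Ccr2, which was lower by -3.86 ± 0.43 (log2). Ccr1 followed at 1.27 ± 0.60 RPKM, and the Ccr2 ligands Ccl2, Ccl7 and Ccl12 had none. Of the Ccr2 words of 31 bases, 3.48% also occurred elsewhere among the annotated transcripts. This share was larger for Emb (17.4%), Csf1r (14.95%) and Notch1 (9.40%), and smaller for Sdc1, Flt3, Grap2, Cd28 and Lmo2.

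Emb (Entrez 13723) encodes embigin, a membrane glycoprotein that escorts lactate carriers to the surface. It had 50, 73 and 234 counts, or 1.54, 2.32 and 2.77 RPKM. Basigin, encoded by Bsg, does the same task in most tissues and stood at 51.4 ± 6.25 RPKM, above Emb in every library, with a difference of -4.28 ± 0.43 (log2) for Emb. The third member of this immunoglobulin family, Nptn, had 35.4 ± 0.69 RPKM. Of the carriers, Slc16a1 stood at 70.8 ± 5.53 RPKM, against 1.44 ± 0.52 RPKM for Slc16a3 and 0.433 ± 0.093 RPKM for Slc16a7, the partner usually named for embigin. Emb shares 686 exonic bases with Gm17509 on the opposite strand. Notch1 shares 1068 with 0610009E02Rik and 414 with Gm13568, both on the opposite strand.

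**Figure D4:**
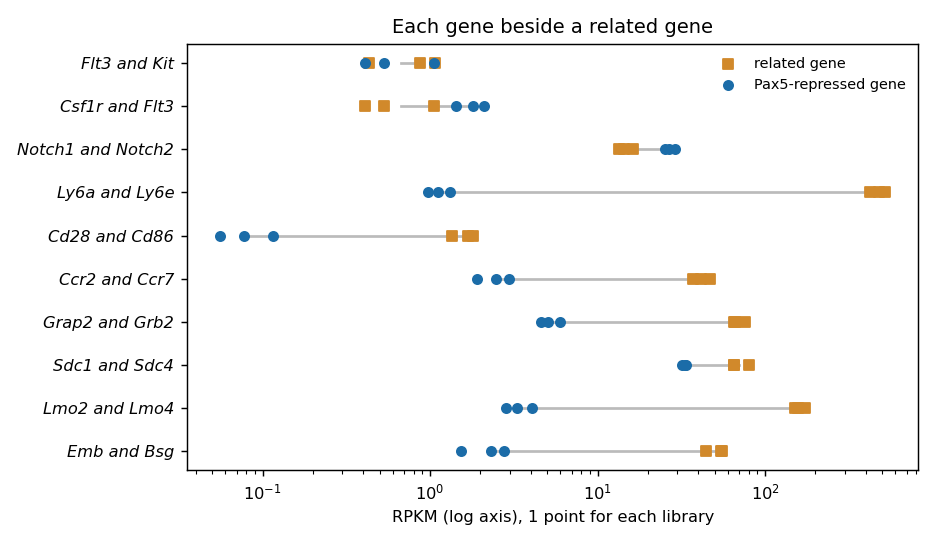
RPKM (log axis) of each of the 10 genes (circles) and of a related gene fixed beside it (squares), 1 point for each library, with a line between the means. Csf1r lies above Flt3 and Notch1 above Notch2 in every library, Flt3 and Kit overlap, and in the remaining 7 pairs the Pax5-repressed gene lies to the left of the related gene.

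In all, 10 such pairs were compared within libraries, and 9 kept 1 sign in all 3. The related gene was the higher in 8 by mean. An exact two-sided sign-flip test over 3 libraries cannot give less than 0.25, so no pair could pass 0.05, and the 9 pairs had p = 0.25 each (0.278 after Benjamini-Hochberg adjustment over the 10) and Flt3 against Kit had p = 1.0. The choice of the related genes was made with earlier results of these data known, so their direction is a description. It also depends on the relative chosen: by mean, Sdc2 and Sdc3 lay below Sdc1, Lmo1 and Lmo3 below Lmo2, and Ctla4 and Icos below Cd28.

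The spread between libraries was measured against counting noise and then against that of other genes. The filter on low counts kept 12147 genes and 9 of the 10, all but Cd28. Against Poisson noise, 54.6% of the genes tested differed between the libraries (chi-square, Benjamini-Hochberg over all 12147), and 7 of the 9 did. Notch1 had the smallest adjusted p, 7.5e-11, at a spread of 7.28% and on the largest counts of the 9. Flt3 came next (adjusted chi-square p = 5.3e-05), then Emb (0.0015), Ccr2 (0.0023), Grap2 (0.0194), Csf1r (0.0325) and Lmo2 (0.0482). Sdc1 (0.402) and Ly6a (0.727) did not pass. No call among the 9 remained without replicate 3, where Ly6a fell below the filter and 25.7% of all genes tested were called. Without replicate 1 the calls were Flt3, Notch1 and Lmo2, against 43.3% of all genes, and without replicate 2 Lmo2 lost its call, against 32.9% of all genes, so calls also fell over all genes.

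Against the spread of genes of like abundance, none of the 9 passed. In a quasi-likelihood fit by edgeR with an intercept alone, 0.0165% of all genes did (2 genes, and 0 in a robust fit; 644 had an unadjusted p under 0.05). The smallest adjusted p among the 9 was 0.943, for Flt3, whose unadjusted p was 0.0518; none of the 9 had an unadjusted p under 0.05. Of pairs of libraries, replicates 1 and 2 differed beyond counting noise in none of the 9, against 25.9% of all genes tested. Between replicates 1 and 3 it was 6 of the 9, against 34.7%, and between replicates 2 and 3 it was 3 of the 9, against 45.3%, so the pair with the most calls over all genes was not the one with the most among the 9.

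Replicate 3 also differs from the others in its CASAVA version, 1.8.0 against 1.8.2, and the version and the library cannot be told apart. This contrast has 1 library on one side, which is assumed to vary like the 2 on the other. In the contrast of replicate 3 with replicates 1 and 2, edgeR's quasi-likelihood test called 0.0576% of 12147 genes higher and 0.0165% lower (1169 genes had an unadjusted p under 0.05), and none of the 9. Flt3 had the largest difference, 1.17 ± 0.32 (log2, SE; adjusted p = 0.353, unadjusted 0.0071), and Emb had 0.53 ± 0.30 (adjusted p = 0.631) and Ccr2 0.44 ± 0.25 (adjusted p = 0.624). Without replicate 1 these were 0.26 for Emb and 0.26 for Ccr2, below Lmo2 at 0.50, so the order after Flt3 (1.37) did not hold. Flt3 was the only one with an unadjusted p under 0.05. DESeq2 called none of the 9 and gave Flt3 1.18 ± 0.76 (unadjusted p = 0.120).

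In direction, 7 of the 9 were highest in replicate 3, as were 35.1% of all genes tested, and Csf1r, Ccr2, Emb and Ly6a were lowest in replicate 1, intermediate in replicate 2 and highest in replicate 3, an order that 13.2% of all genes tested had. Cd28, outside the filter, had the same order on 3, 4 and 16 counts. None of the 9 passed the threshold between replicates 1 and 2, so that step of the order was not resolved from counting noise. At these counts a real step could be missed: Emb had an unadjusted chi-square p of 0.0228 without replicate 3 (adjusted 0.0793). Ly6a did not differ beyond counting noise across the 3 libraries (adjusted chi-square p = 0.727). The sums of myeloid markers also rose from replicate 1 to 2 to 3. The 11 monocyte and macrophage markers summed to 180, 214 and 262 RPKM, the 10 neutrophil markers to 1294, 1566 and 2308 RPKM. By gene, 10 of the 11 were highest in replicate 3 and 1 in replicate 1. Of the 10 neutrophil markers, 8 were highest in replicate 3 and 2 in replicate 1. The median of the 11 was 0.420 RPKM, so a few genes carry that sum. The ratio of replicate 3 to replicate 1 was 1.45 for the monocyte sum and 1.78 for the neutrophil sum. It was 1.21 for the dendritic, 1.12 for the T and NK, 0.912 for the plasma cell and 0.909 for the stem and progenitor sum. For the 9 B-lineage and gate markers it was 0.878, and for the 8 stroma and endothelium markers 0.848. By gene it was 2.06 for Cd28, 2.01 for Flt3, 1.81 for Emb, 1.55 for Ccr2, 1.46 for Csf1r and 1.35 for Ly6a. For Lmo2, Notch1, Sdc1 and Grap2 it was 1.22, 1.09, 0.977 and 0.776. Of the monocyte list, 3 of 11 genes reached 1 RPKM in every library (Lyz2, Itgam and Ly6c2), and Adgre1, Cx3cr1 and Fcgr1 stayed at or below 0.533 RPKM in each. The part of myeloid cells in the levels of Csf1r, Ccr2, Emb and Ly6a was not tested.

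Flt3, Notch1 and Lmo2 were lowest in replicate 2 and highest in replicate 3, as were 21.9% of all genes tested. Of the 8 dendritic cell markers, 2 had this order and 6 did not. The 2 were Siglech, of plasmacytoid dendritic cells, and Itgax, at 1.44, 0.801 and 4.16 RPKM and at 0.520, 0.332 and 0.973 RPKM. The whole list summed to 38.7, 39.7 and 46.8 RPKM, of which Tcf4, also a B-cell factor, gave 26.8 ± 1.47 RPKM, while Clec9a had 0, 0 and 3 counts. Their part in the Flt3 level was not tested.

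**Figure D5:**
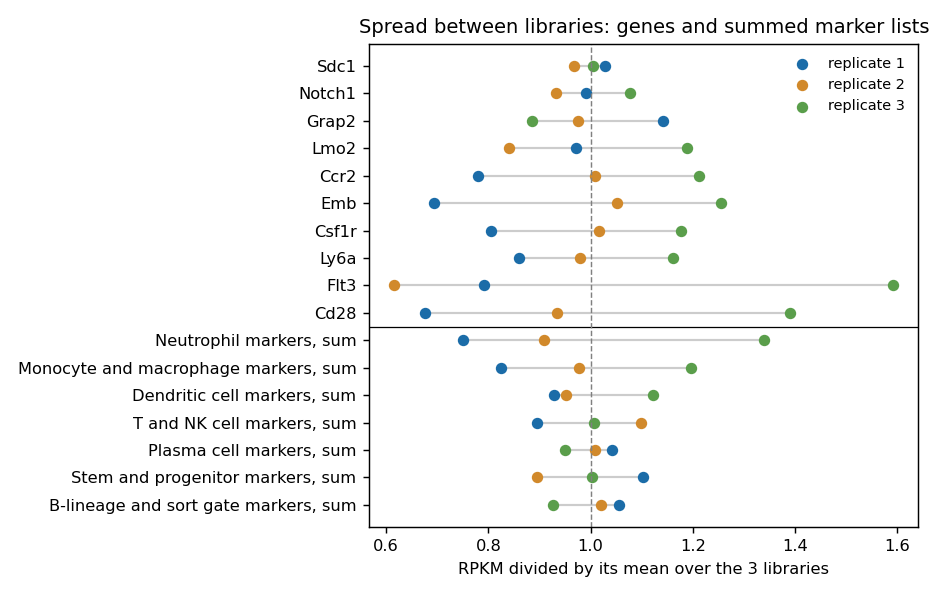
RPKM of each of the 10 genes and summed RPKM of 7 marker lists in replicates 1, 2 and 3, each divided by its mean over the libraries. Counting error is not drawn. Csf1r, Ccr2, Emb and Ly6a run from replicate 1 on the left to replicate 3 on the right, as the neutrophil and monocyte sums do; Sdc1 and Notch1 stay near 1, and Flt3 spreads the most.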

How the data were processed

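RNA was sequenced from 3 libraries of 1 group of pre-B cells. The deposited values are raw counts per Entrez gene, made by the authors with featureCounts on mm9 after base calling with CASAVA 1.8.2 (replicates 1 and 2) or 1.8.0 (replicate 3), per the submitters' processing notes. Symbols came from a RefSeq table of GRCm38.p6, used for names only, and promoters from another of that build. From the counts, RPKM was computed with the deposited gene lengths and TMM-scaled library sizes (edgeR 4.0.16), and log values are log2(RPKM + 0.5). Intervals are exact Poisson at 95% and, like the limit for a count of 0 (3 counts), cover counting error only. filterByExpr with a minimum count of 10 kept 12147 genes. The spread between libraries was compared with Poisson noise by chi-square and with that of like genes by edgeR's quasi-likelihood F test, and replicate 3 against replicates 1 and 2 by glmQLFTest, with Benjamini-Hochberg adjustment over all genes tested and a threshold of 0.05. Pairs were compared by an exact sign-flip test. The scripts were tested on simulated data. Alternatives were DESeq2 1.42.0, its size factors, no scaling, no filter, a robust fit, other pseudocounts, thinning of replicate 3 and leaving out each library. Shared words of 31 bases and exon overlaps were read from GENCODE transcripts of GRCm38. Of the 26286 identifiers, 24176 matched a symbol. The text names the 10 genes, the related gene of each pair and, of each list, the 3 highest and the lowest where they bear on a result, and the other genes were named after their values were seen. The genes and lists were chosen with earlier results of these data known. Some genes of the lists are not reported here.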

Additional observations from a re-analysis of the deposited data

How the results depend on the processing

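Of the values that answer a comparison, 11 moved and 2 changed sign under an alternative; the sign-flip p of the pairs cannot pass the threshold and says nothing about stability. Flt3 minus Kit changed sign when a library was left out (-0.60 to 0.078, log2; 0.078 without replicate 1 and 0.067 without replicate 2). Leaving out a library gave 3145 to 5590 genes beyond Poisson noise (4256 without replicate 2) and 0 to 6 of the 10 genes (3 without replicate 1). It gave 2 to 44 genes beyond the spread of like genes (8 without replicate 1), against 46 with all genes with a count and 0 with a robust fit. The contrast of replicate 3 called 23 genes with no scaling, 0 with all genes with a count and 36 with DESeq2, against 9, with none of the 10 genes among them. Lmo2 lost its call beyond Poisson noise with all genes with a count (adjusted p = 0.0643) and after thinning replicate 3 to the depth of replicate 2 (0.119). Without replicate 1 or 2 the contrast of replicate 3 has no test; Emb differed by 0.26 without replicate 1 and 0.85 without replicate 2, Csf1r by 0.21 and 0.55, Ccr2 by 0.26 and 0.64, Grap2 by -0.14 and -0.37, and Sdc1 by 0.05 and -0.03. The causes were not tested. No paired analysis was possible because the study has 1 group. At 3 to 35 counts per library, Cd28 and Ly6a are limited by counting error.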
